A study of Macaca fascicularis with 64 samples.

Results

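This section describes pancreatic β-cells of cynomolgus monkeys (Macaca fascicularis) that carried transcripts of RELN, the gene of the secreted glycoprotein reelin. The cells were chosen by measured values. A β-cell was a cell with over 800 macaque genes and over 10000 unique molecular identifiers (UMIs, each standing for 1 captured mRNA molecule), in which INS was the highest of the hormone genes GCG, INS, SST and PPY, reached at least 20000 counts per 1000000 macaque UMIs of the cell (CPM) and was at least 2 times the second hormone. A RELN-high β-cell had at least 3 RELN UMIs. The rule found 62 RELN-high cells among 1086 β-cells, out of 5908 retained cells of 6141 in all. A further 55 β-cells had 1 or 2 RELN UMIs and 969 had 0.

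Islet cells came from the pancreas tail of 16 non-diabetic monkeys, 8 young (4 to 6 years) and 8 old (18 to 21 years), with 4 females and 4 males at each age. The labels give no treatment and no genetic change, and the animals came into the study without earlier experimental use. Islets were picked by hand, dissociated, and single cells were taken by mouth pipette into a modified STRT-seq, a method that counts transcript ends by UMI, with 4 libraries per monkey. One monkey was processed per day, so day and monkey cannot be told apart.

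Reelin is best known from the developing brain, where neurons of the outer layer secrete it to guide migrating cells. It binds the lipoprotein receptors VLDLR and LRP8 (ApoER2) on the receiving cell, which pass the signal on through the adaptor DAB1, a docking protein that becomes phosphorylated. Outside the brain, reelin is made by lymphatic vessels, liver stellate cells and other secretory cells. β-cells make insulin in large amounts, store it in dense granules with the amyloid peptide IAPP and granins, and depend on transcription factors such as NKX6-1 and MAFA.

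Retained cells per monkey ranged from 338 to 381, and the median number of UMIs per β-cell ranged from 32624 to 106436 between monkeys. β-cells per monkey ranged from 8 to 189. The second hormone stood at a median of 30.0% of INS in RELN-high cells and 28.8% in β-cells without RELN UMIs, so transcripts of a second hormone were present in both. All 64 libraries used one set of 96 cell barcodes. The 62 RELN-high cells carried 48 different barcodes, and the 30 of old female 1 carried 28. One animal, old female 1, stood apart from the others in RELN, as the next paragraphs show, and the main results that rest on it are given with and without it.

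RELN-high β-cells were unevenly spread over the animals. Old female 1 had 30 of its 127 β-cells in this state, 23.6% (95% exact binomial interval 16.5 to 32). Old female 4 had 13 of 189 (6.88%), old female 3 had 5 of 27 (18.5%) and old female 2 had 2 of 58 (3.45%). Among old males, old male 4 had 3 of 17 (17.6%), old male 3 had 1 of 65 (1.54%), and old males 1 and 2 had 0 of 82 and 0 of 65. Young male 2 was the only young monkey with RELN-high cells, 8 of 123 (6.50%, interval 2.85 to 12.4).

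The other 7 young monkeys had none. With 0 RELN-high cells the number of β-cells sets the limit, taken as 3 cells of the total, which was a share of up to 2.97% in young male 4 with 101 β-cells but up to 37.5% in young female 2 with 8. The intervals and limits cover counting error only. In all, RELN-high β-cells were found in 7 of 16 monkeys and in 20 of 64 libraries.

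**Figure D1:**
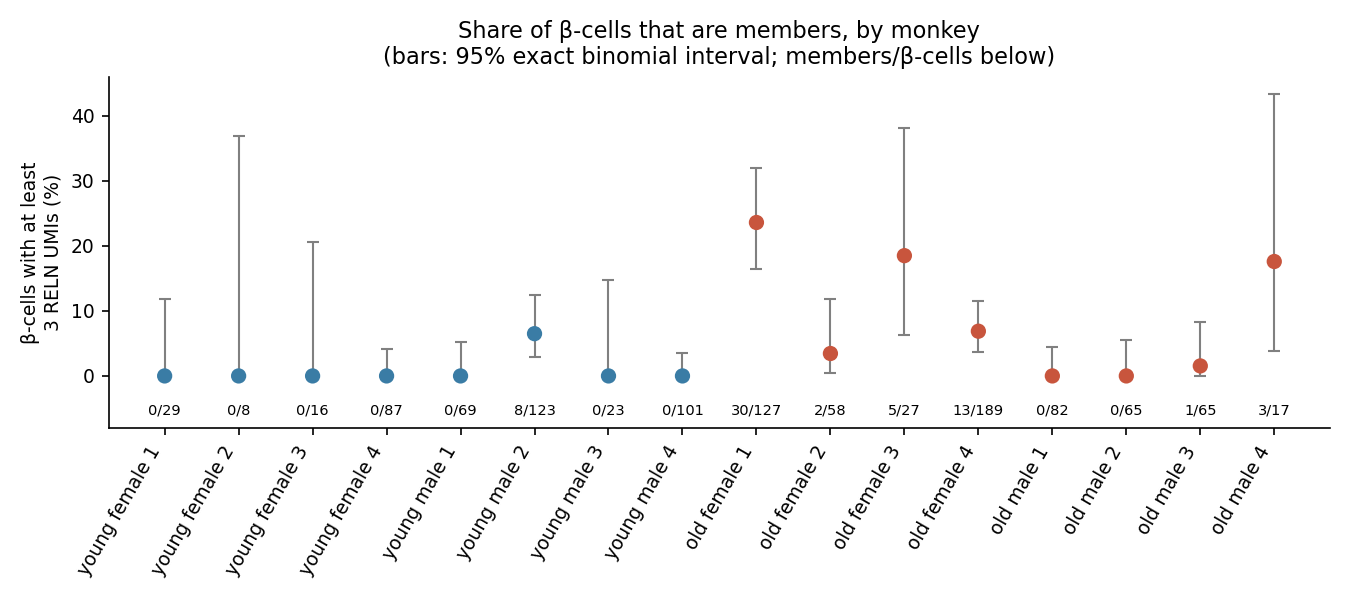
Percent of β-cells with at least 3 RELN UMIs in each monkey (vertical axis, bars the 95% exact binomial interval), young in blue and old in red, with the counts of RELN-high cells and β-cells printed below. Old female 1 is highest at 23.6%, and young male 2 is the only young monkey above 0.

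The share was compared between ages with the monkey as the replicate. It averaged 8.96% ± 9.50 (SD, n = 8) in old and 0.813% ± 2.30 (SD, n = 8) in young monkeys, a difference of 8.14 percentage points (two-sided exact permutation test, p = 0.0312). After Benjamini-Hochberg adjustment over the 2 comparisons made, of age and of sex, the exact permutation p was 0.0625 and did not pass 0.05. RELN-high cells were present in 6 of 8 old and 1 of 8 young monkeys, and the ranges of the groups overlapped, since 2 old males had 0.

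In females alone, the 4 old animals lay between 3.45% and 23.6% and the 4 young animals were all at 0, a difference of 13.1 points (exact permutation p = 0.0286, the smallest that 4 against 4 can give). Young females 1, 2, 3 and 4 had 29, 8, 16 and 87 β-cells. Their zeros allow shares of up to 10.3%, 37.5%, 18.8% and 3.45%, which reach the shares of some old females. In males the difference was 3.17 points (exact permutation p = 0.714). The difference between the effects in the sexes was 9.95 points (exact permutation of ages within each sex, p = 0.231). Without old female 1 the old-minus-young difference was 6.05 points (exact permutation p = 0.0499), and leaving out any 1 of the 7 young monkeys at 0 gave 8.03 points and p = 0.0586 by the same exact test. When every cell was thinned to 10000 UMIs and counted with at least 1 RELN UMI, the difference was 8.37 points (exact permutation p = 0.0956).

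By sex, the share averaged 6.56% ± 9.38 (SD, n = 8) in females and 3.21% ± 6.25 (SD, n = 8) in males, a difference of 3.35 points that was within the spread between monkeys (exact permutation p = 0.393).

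The RELN counts that chose the cells varied over a wide range. RELN-high cells held 3 to 443 RELN UMIs with a median of 11, or 14.1 to 2510 CPM with a median of 130 CPM. At least 10 RELN UMIs were found in 33 of the 62 cells. In old female 1 the median was 27 UMIs, and this animal contributed 1546 of the 1822 RELN UMIs of all RELN-high cells (84.9%). The highest cell outside old female 1 had 24 RELN UMIs, in old male 4. Medians in the remaining animals with at least 3 such cells were 11 UMIs in old female 3, 7 in old female 4, 19 in old male 4 and 5.5 in young male 2.

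Cells on either side of the threshold overlapped in RELN per UMI. The 10 cells with 3 RELN UMIs came from 5 monkeys and had 20.6 to 128 CPM of RELN (median 37.1). The 17 cells with 2 RELN UMIs also came from 5 monkeys and had 12.9 to 195 CPM (median 29.9). The 38 cells with 1 RELN UMI had 4.30 to 43.9 CPM (median 11.4).

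**Figure D2:**
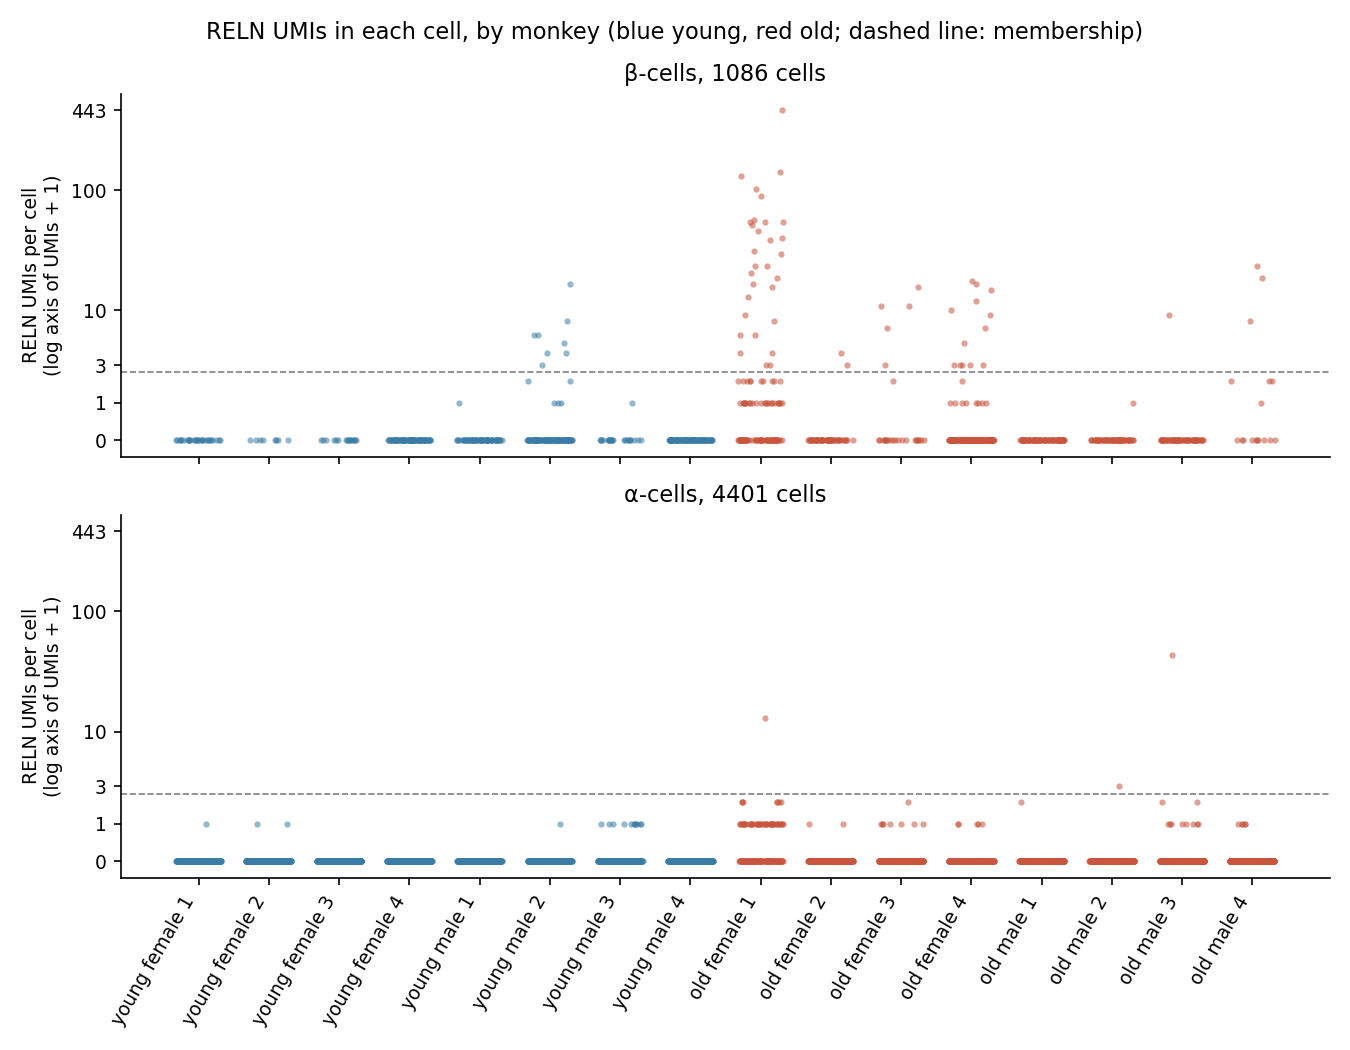
RELN UMIs in every β-cell (upper panel, 1086 cells) and α-cell (lower panel, 4401 cells) by monkey, on a log axis of UMIs + 1, each point a cell, young in blue and old in red; the dashed line marks at least 3 UMIs. Counts above 24 in β-cells occur only in old female 1, where α-cells also carry many counts of 1 or 2.

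By number, most islet cells with counts of 3 or more were β-cells, 62 of 1086 (5.71%, 95% exact interval 4.40 to 7.26). Of 4401 α-cells, the glucagon cells, 3 passed (0.0682%, 95% exact interval 0.0141 to 0.199), with 13 UMIs in old female 1, 3 in old male 2 and 44 in old male 3. With 1 such cell in each of 3 monkeys, no comparison within α-cells could be fitted. Among 101 δ-cells, the somatostatin cells, 3 passed (2.97%, interval 0.617 to 8.44), with 7, 25 and 43 UMIs, each in a different monkey. These intervals pool the cells of all monkeys and cover counting error only, so they are no comparison between the kinds. Of the 62 β-cells, 30 came from old female 1. None of 58 PP-cells passed, which allows a share of up to 5.17%.

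Another 11 of 262 retained cells without a clear hormone had at least 3 RELN UMIs (4.20%). INS was the highest hormone in 6 of these 11 cells, GCG in 4 and PPY in 1, and 5 of the 11 came from old female 1. Summed over all cells of a kind, RELN stood at 20.8 CPM in β-cells, 16.5 CPM in δ-cells, 2.0 CPM in PP-cells and 0.535 CPM in α-cells. Without old female 1 the levels were 3.82 CPM in β-cells, 15.4 CPM in δ-cells, 1.52 CPM in PP-cells and 0.323 CPM in α-cells. This put β-cells below δ-cells, but all 68 RELN UMIs of the δ-cells came from 2 of 95 cells, with 43 and 25. The share of cells with at least 3 RELN UMIs was then 3.34% in β-cells and 2.11% in δ-cells. By monkey, the level in β-cells averaged 14.3 CPM ± 36.3 (SD, n = 16) with a median of 0.460 CPM, and that in α-cells averaged 0.646 CPM ± 1.47 (SD, n = 16). In the 11 monkeys with at least 5 δ-cells, their level averaged 13.3 CPM ± 23.9 (SD, n = 11), so the spread between monkeys exceeded the mean in all 3 kinds. These levels follow from the counts that chose the cells and carry no test.

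Counts of 1 or 2 RELN UMIs differed from counts of 3 or more in that they were also common in α-cells of the same libraries. In old female 1, 63 of 127 β-cells (49.6%, median depth 72700 macaque UMIs) and 51 of 165 α-cells (30.9%, median depth 60853) had at least 1 RELN UMI, but 23.6% of the β-cells and 0.606% of the α-cells had at least 3. After thinning to 10000 UMIs, 25.2% of β-cells and 6.10% of α-cells of this monkey kept a RELN UMI. In the other 15 monkeys, the share of α-cells with at least 1 RELN UMI ranged from 0% to 4.06%.

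Low counts were found mainly in libraries that also held a cell with many RELN UMIs. In the 17 libraries with a cell of at least 10 RELN UMIs, 87 of 1085 α-cells (8.02%) had 1 or 2 RELN UMIs, against 9 of 3316 (0.271%) in the 47 other libraries. The same split in β-cells gave 47 of 324 (14.5%) and 8 of 762 (1.05%). All 4 libraries of old female 1 were among the 17, and in the 13 others 37 of 920 α-cells (4.02%) and 14 of 197 β-cells (7.11%) had 1 or 2. Library 2 of old male 3 held an α-cell with 44 RELN UMIs, and 10 of its other α-cells had 1 or 2. Library 4 of young male 3 held 2 cells of no clear hormone with 27 RELN UMIs each, and 9 of its 68 α-cells (13.2%) had 1. In library 1 of old female 1, which had the most RELN-high cells (14), 17 of 31 α-cells (54.8%) had 1 or 2. The part of RNA shared within a library in the counts of 1 and 2, or in RELN-high cells just past the threshold, was not tested.

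**Figure D3:**
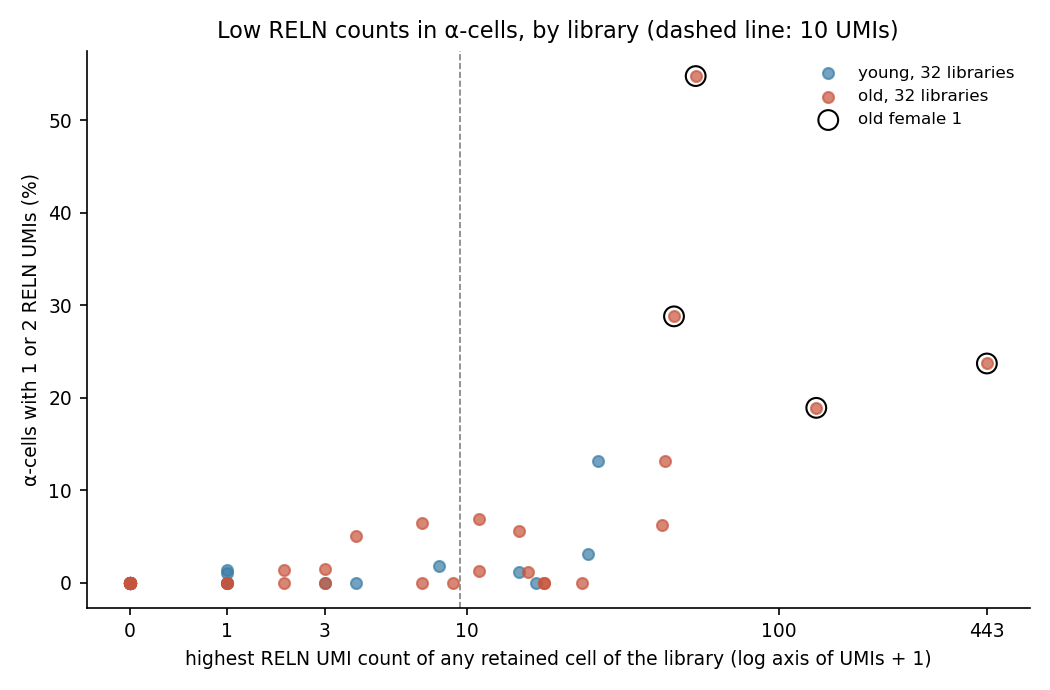
Percent of α-cells with 1 or 2 RELN UMIs (vertical axis) against the highest RELN UMI count of any retained cell of the same library (log axis of UMIs + 1), each point 1 of 64 libraries, blue young and red old, old female 1 ringed. The 4 libraries of old female 1 lie highest, between 18.9% and 54.8%.

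RELN-high cells were somewhat deeper than β-cells without RELN UMIs, mainly in old female 1. Over all monkeys the median was 80832.5 macaque UMIs and 5123.5 genes per RELN-high cell, against 75848.0 UMIs and 4703.0 genes per cell with 0. In old female 1 the medians were 102480.5 and 58698.0 UMIs. In young male 2 they were 63032.0 and 48915.0, while in old female 3 (69232.0 and 88131.0) and old female 4 (80462.0 and 92942.0) the RELN-high cells were shallower. Of the 62 RELN-high cells, 10 (16.1%) exceeded the 95th percentile of UMIs of all retained cells, against 80 of 969 (8.26%) of those without RELN UMIs. The share of spike-in molecules, which falls as a cell yields more RNA, had medians of 4.08% and 4.5%.

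The cells had been proposed to share 3 further genes with RELN. ADARB2, a brain member of the RNA-editing enzyme family without known editing activity, had no UMI in any of the 62 RELN-high cells, which allows a share of up to 4.84%, and was found in 11 of 969 β-cells without RELN UMIs (1.14%), a share below that limit. In old females 1 to 4 and young male 2, which held 58 of the 62 RELN-high cells, the β-cells without RELN UMIs had none either. PLA2G4A, the cytosolic phospholipase that frees arachidonic acid from membranes, was found in 5 of 62 RELN-high cells (8.06%, 95% exact interval 2.67 to 17.8) and in 164 of 969 cells without RELN UMIs (16.9%, interval 14.6 to 19.4). Cells are not replicates of an animal, and by animal the shares went both ways. In old female 4, 2 of 13 RELN-high cells (15.4%) and 46 of 167 others (27.5%) had a PLA2G4A UMI, while in young male 2 the counts were 2 of 8 (25.0%) and 9 of 110 (8.18%). They were 0 of 30 and 1 of 64 in old female 1, and 1 of 5 and 2 of 21 in old female 3. The pooled 16.9% also includes monkeys without RELN-high cells, such as young female 4 (24 of 87) and young male 4 (27 of 101).

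RARRES1, a retinoid-responsive membrane protein gene, was the only one of the 3 found in a larger share of RELN-high cells. It had a UMI in 10 of 62 (16.1%, 95% exact interval 8.02 to 27.7) and in 37 of 969 (3.82%, interval 2.70 to 5.22). These shares pool the cells of all monkeys. The gene was also found in 6 of 55 β-cells with 1 or 2 RELN UMIs (10.9%, interval 4.11 to 22.2), 4 of them in old female 1. In old female 1 the counts were 5 of 30 RELN-high cells and 1 of 64 others, in old female 3 they were 2 of 5 and 2 of 21, in old female 4 they were 2 of 13 and 12 of 167, and in young male 2 they were 0 of 8 and 3 of 110. Of the 126 RARRES1 UMIs in RELN-high cells, 85 came from 1 cell of old female 1. RELN-high cells of this animal were deeper than its RELN-0 cells (medians 102480.5 and 58698.0 UMIs). The part of depth in the RARRES1 share was not tested. The gene was too low for the test across all genes. In the fit without a filter on low counts its log2 fold change was 0.67 (edgeR quasi-likelihood test, adjusted p = 0.985). The group is accordingly named here by RELN alone.

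RELN-high cells were compared with β-cells of 0 RELN UMIs within the 4 animals that had at least 5 cells of each, old females 1, 3 and 4 and young male 2. This comparison asks whether cells with RELN differ in other transcripts. Counts were summed per animal and state, giving 30, 5, 13 and 8 RELN-high cells against 64, 21, 167 and 110, and tested with the animal as a block, leaving RELN out. The remaining RELN-high animals had 1 to 3 such cells and did not enter.

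No gene passed. Of 9475 genes tested by edgeR, 0 had an adjusted p under 0.05 (0% of all genes), with 0.999 the smallest adjusted p. At an unadjusted p under 0.05 there were 336 genes (3.55%), 91 higher (0.960%) and 245 lower (2.59%) in RELN-high cells. With DESeq2's size factors (RLE) in place of TMM the split was 122 higher and 205 lower. On the same sums DESeq2 called 2 genes (0.0211%) and limma-voom 10 (0.106%). The median log2 fold change over all genes was -0.12, and 5618 of 9475 genes were below 0. With the RELN-0 cells cut to the same number per animal and matched in depth, 0 of 7059 genes passed, the split at an unadjusted p under 0.05 was 75 higher and 97 lower, and the median over all genes was 0.03. The matching left a gap in old female 1, where the RELN-0 cells had a median of 87888 UMIs against 102480 in RELN-high cells.

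**Figure D4:**
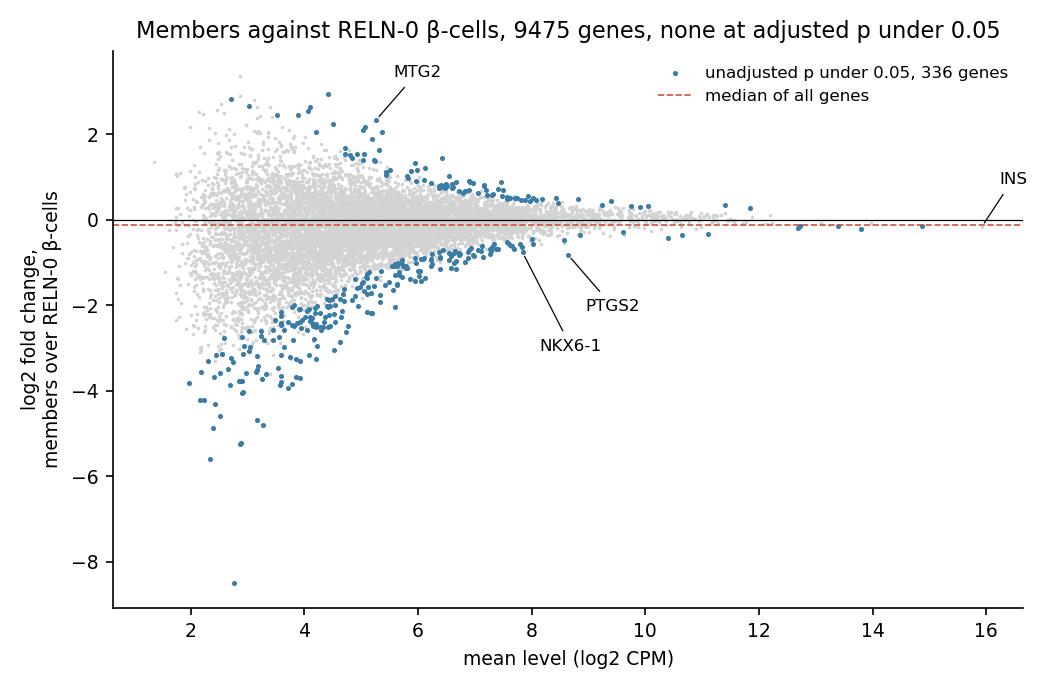
Log2 fold change of RELN-high over RELN-0 β-cells (vertical axis) against mean level in log2 CPM (horizontal axis) for the 9475 genes tested; blue points are the 336 with an unadjusted p under 0.05, the dashed line is the median of all genes at -0.12. The points fan out at low levels, more so downwards, and no gene passed the adjusted threshold.

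Genes of the β-cell itself did not separate the states. INS stood at 39860, 58650, 56040 and 82130 CPM in the RELN-high cells of old females 1, 3 and 4 and young male 2, against 64580, 49460, 58120 and 89410 CPM in their RELN-0 cells. Only old female 1 showed a large gap, and the ranges of the states overlapped. The log2 fold change of INS was -0.16 ± 0.08 (SE, n = 4 animals; edgeR adjusted p = 0.999), and without old female 1 it was 0.03. It was called lower by limma-voom (-0.69, adjusted p = 3.29e-17), without the filter on low counts (-0.20, edgeR adjusted p = 4.59e-07) and with at least 10 RELN UMIs in old females 1 and 4 (-0.59, edgeR adjusted p = 3.15e-09). Since INS was also used to choose β-cells, this compares levels above that cut only.

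IAPP, the islet amyloid peptide that is released with insulin, stood at 2206, 2116, 2270 and 630 CPM in RELN-high cells against 2027, 2335, 2631 and 972 CPM. It was lower in 3 of 4 animals, with a log2 fold change of -0.21 ± 0.12 (SE; edgeR adjusted p = 0.999). Young male 2 had the lowest IAPP in both states.

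Of 18 β-cell transcription factors tested, 0 passed the adjusted threshold in either direction, 1 was below an unadjusted p of 0.05, and the median log2 fold change was -0.11 beside -0.12 for all genes. That 1 was NKX6-1, a homeobox factor that maintains β-cell identity, at 300, 96.9, 123 and 158 CPM in RELN-high cells against 446, 270, 148 and 283 CPM. It was lower in 4 of 4 animals, as were 8.26% of all genes tested, with a log2 fold change of -0.76 ± 0.23 (SE; edgeR unadjusted p = 0.00357, adjusted p = 0.999). MAFA, an activator of the insulin gene, was at 140, 94.2, 65.3 and 114 CPM against 144, 208, 90.4 and 153 CPM, lower in 4 of 4 animals (log2 fold change -0.50 ± 0.28, edgeR adjusted p = 0.999).

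**Figure D5:**
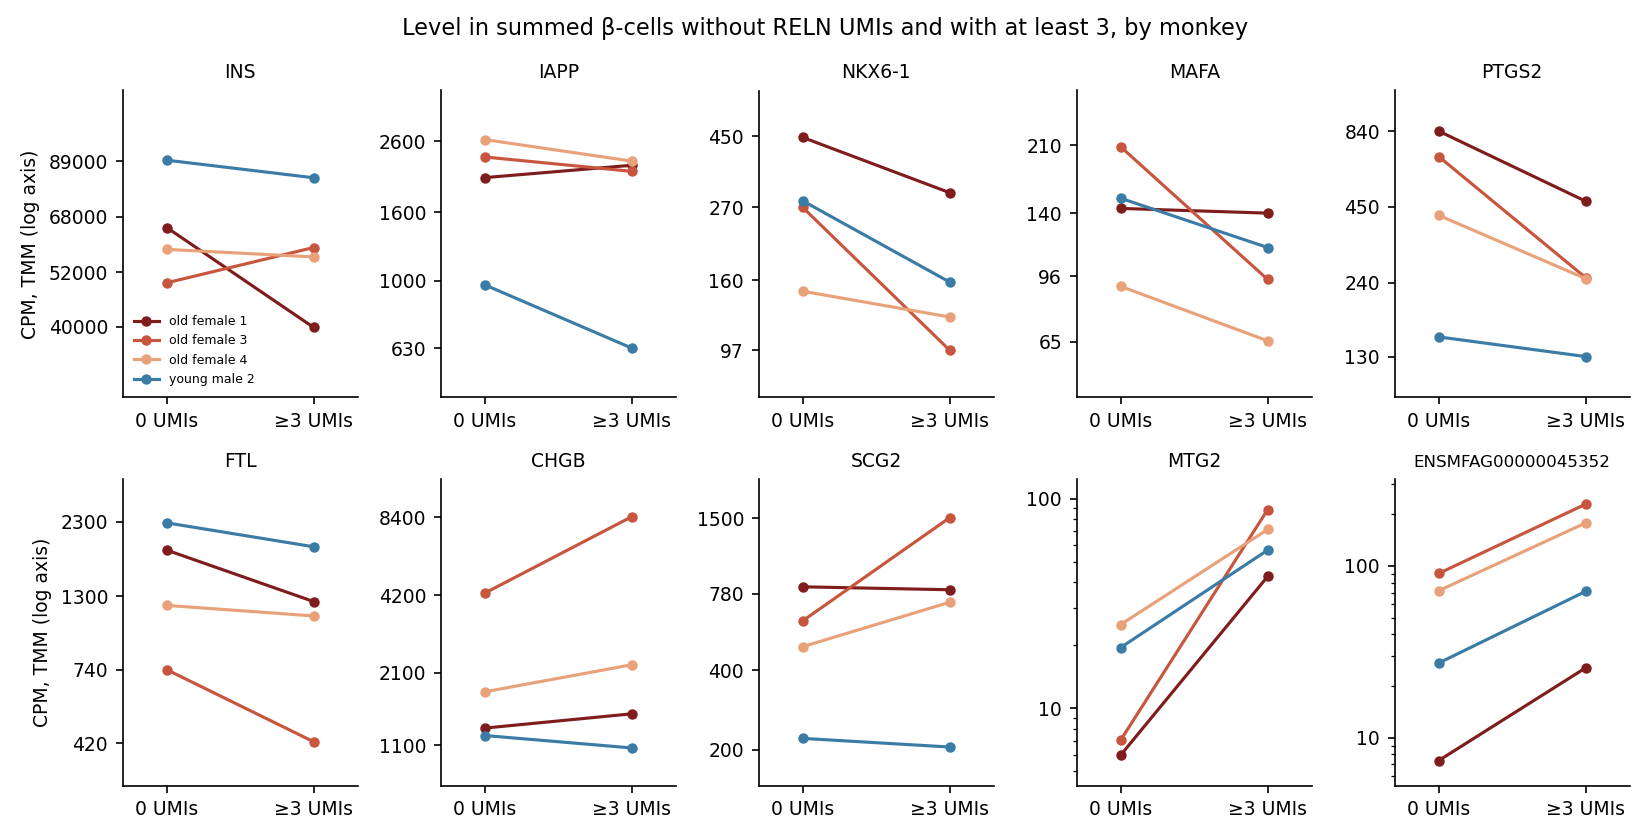
Level of 10 genes in summed β-cells with 0 RELN UMIs and with at least 3 (TMM-scaled CPM, log axis), each line 1 monkey. NKX6-1, MAFA, PTGS2 and FTL are lower and MTG2 and ENSMFAG00000045352 higher in RELN-high cells of all 4 monkeys, and none passed the adjusted edgeR threshold.

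In the insulin production and secretion list, 37 of 49 genes were tested, 0 passed the adjusted threshold, 2 were higher and 1 lower at an unadjusted p under 0.05, and the median log2 fold change was -0.02. CHGB, a granin of the secretory granule, was at 1456, 8446, 2255 and 1074 CPM against 1282, 4272, 1772 and 1200 CPM, higher in 3 of 4 animals (log2 fold change 0.34 ± 0.13, edgeR adjusted p = 0.999). SCG2, another granin, was higher in 2 of 4 animals, with old female 3 at 1510 against 615 CPM (log2 fold change 0.43 ± 0.19, edgeR adjusted p = 0.999). Of 27 genes of the unfolded protein response tested, 0 passed and SEL1L, an adaptor in the breakdown of misfolded proteins, was the 1 gene below an unadjusted p of 0.05 (log2 fold change -0.81 ± 0.30, edgeR adjusted p = 0.999).

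Among arachidonic acid and prostaglandin genes, 15 of 30 were tested and 0 passed. PTGS2, the inducible cyclooxygenase that starts prostaglandin synthesis, had the lowest p of the list. Its level was 471, 250, 248 and 130 CPM in RELN-high cells of old females 1, 3 and 4 and young male 2, against 842, 682, 419 and 153 CPM in RELN-0 cells. It was lower in 4 of 4 animals while the ranges overlapped (log2 fold change -0.83 ± 0.19, SE; edgeR unadjusted p = 0.000407, adjusted p = 0.999), and against the depth-matched cells, which stayed shallower in old female 1, the log2 fold change was -0.28. PTGS2 was called lower by limma-voom (-0.85, adjusted p = 0.0301), without the filter on low counts (-0.87, edgeR adjusted p = 0.0282) and with at least 10 RELN UMIs in old females 1 and 4 (-1.61, edgeR adjusted p = 1.71e-05). PLA2G4A, upstream of it, was at 0, 13.5, 4.30 and 10.2 CPM against 31.1, 2.65, 18.8 and 7.17 CPM, higher in 2 animals and lower in 2. The 31.1 CPM of old female 1 came from 1 cell with 135 UMIs.

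The receptors and the adaptor of reelin did not mark the cells either. VLDLR, the receptor with the most transcripts, was at 21.1, 24.2, 25.8 and 36.6 CPM in RELN-high against 41.0, 45.4, 27.9 and 48.8 CPM in RELN-0 cells, lower in 4 of 4 animals (log2 fold change -0.59 ± 0.55, edgeR adjusted p = 0.999). By cells pooled over all monkeys, the share with a VLDLR UMI was larger in RELN-high cells, 38 of 62 (61.3%) against 423 of 969 (43.7%). It went against the level, but cells are not replicates of an animal. Of the 62 cells, 30 came from old female 1, where RELN-high cells were deeper (medians 102480.5 and 58698.0 UMIs). The part of depth in this share was not tested. LRP8 was found in 0 of 62 RELN-high cells and 30 of 969 others (3.10%), and DAB1 in 0 of 62 and 1 of 969. A count of 0 of 62 allows a share of up to 4.84%, above the share in the others for either gene.

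Across islet cells, VLDLR had a mean of 32.6 CPM ± 11.1 in the β-cells and 35.8 CPM ± 8.49 in the α-cells of 16 monkeys (SD), which differed by less than the spread between monkeys. DAB1 averaged 0.0109 CPM ± 0.0434 in β-cells and 1.16 CPM ± 1.07 in α-cells (SD, n = 16 each), where 74 of 4401 cells (1.68%) had a DAB1 UMI. Of the 25 reelin pathway genes tested, 0 passed, 11 were above and 14 below 0, and the median log2 fold change was -0.14. NCK2, an adaptor to the actin cytoskeleton, was the 1 gene below an unadjusted p of 0.05 (3.42, 2.69, 6.88 and 2.03 CPM against 24.4, 22.5, 12.5 and 11.8 CPM, log2 fold change -2.24 ± 1.02, edgeR adjusted p = 0.999). The RELN-high sums of old female 3 and young male 2 held 388281 and 493739 UMIs over all genes. Their NCK2 levels therefore rest on very few UMIs.

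None of the remaining gene lists held a gene past the adjusted threshold. The medians of their log2 fold changes were -0.46 for 12 inflammation and NF-kB genes, 0.00 for 16 senescence genes, -0.11 for 16 immediate-early genes, -0.36 for 20 adhesion, axon guidance and synapse genes, 0.22 for 18 extracellular matrix genes, 0.09 for 27 genes of glycolysis and the TCA cycle, -0.16 for 20 cholesterol and fatty acid genes, 0.02 for 23 antioxidant genes, -0.17 for 16 interferon and antigen presentation genes and 0.09 for 13 immaturity and disallowed genes. The lists of retinoid genes (7 tested, median -0.29), RNA editing (5, 0.07), cell cycle (6, 0.25) and imprinted genes (10, -0.17) had few members above the count filter. FTL, the ferritin light chain that stores iron, had the lowest p of the antioxidant list. It was at 1246, 425, 1116 and 1897 CPM against 1849, 739, 1210 and 2279 CPM, lower in 4 of 4 animals (log2 fold change -0.43 ± 0.13, edgeR adjusted p = 0.999). LRRTM3, a synaptic adhesion protein gene, was the 1 adhesion gene below an unadjusted p of 0.05 and was higher in 3 of 4 animals (log2 fold change 1.22 ± 0.47, edgeR adjusted p = 0.999).

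MTG2 and ENSMFAG00000045352 were the 2 genes that DESeq2 called, and they are named here after their values were seen. MTG2, a GTPase of mitochondrial ribosome assembly, was at 42.6, 88.8, 71.4 and 56.9 CPM in RELN-high cells of old females 1, 3 and 4 and young male 2, against 5.98, 7.05, 25.1 and 19.5 CPM. The states did not overlap (log2 fold change 2.34 ± 0.58, edgeR unadjusted p = 0.000655, adjusted p = 0.999; DESeq2 adjusted p = 0.0135). ENSMFAG00000045352, for which the files give no symbol, was at 25.5, 229, 178 and 71.1 CPM against 7.36, 90.4, 71.7 and 27.2 CPM, higher in 4 of 4 animals (log2 fold change 1.45 ± 0.34, edgeR adjusted p = 0.999; DESeq2 adjusted p = 0.0135). Of all genes tested, 4.64% were higher in all 4 animals.

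Markers of other cells were measured in the same sums. α-cell markers made up 3.39% to 5.03% of UMIs in RELN-high and 4.00% to 5.47% in RELN-0 cells, higher in 1 of 4 animals. δ-cell markers ranged from 23.2 to 612 CPM in RELN-high and from 115 to 889 CPM in RELN-0 cells. Markers of stellate cells ranged from 2.58 to 404 CPM against 3.21 to 142 CPM and were higher in RELN-high cells in 3 of 4 animals, with the 404 CPM in old female 1. Endothelial markers were at 5.15 to 12.2 CPM against 9.11 to 45.0 CPM. Of 8 acinar markers, 5 were among the counted genes. They ranged from 0 to 5.28 CPM against 0 to 3.27 CPM, higher in 2 of 4 animals, with CLPS, CPA1 and REG1A at 0 in the RELN-high cells of these 4 animals. Schwann markers ranged from 0 to 59.7 CPM against 0.433 to 95.3 CPM, higher in 1 of 4 animals, with CDH19 and SOX10 at 0 in the RELN-high cells of these 4 animals. Ductal markers ranged from 122 to 2207 CPM against 99.4 to 2452 CPM, PP-cell markers from 84.7 to 742 CPM against 57.1 to 1468 CPM, and immune markers from 0 to 63.9 CPM against 6.95 to 55.4 CPM. The 13 mitochondrial genes took 5.47%, 5.65%, 6.04% and 4.48% of UMIs in RELN-high cells against 6.32%, 6.62%, 6.44% and 4.83%, lower in 4 of 4 animals. The part of these markers in the comparison was not tested. With every cell thinned to 10000 UMIs, 0 of 3990 genes passed by edgeR and the median log2 fold change over all genes was -0.01.

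β-cells with 1 or 2 RELN UMIs were compared with RELN-0 cells in the same way, in the 3 animals with at least 5 of each (33, 9 and 5 cells in old females 1 and 4 and young male 2). Of 9938 genes, 0 passed by edgeR (0%), 345 had an unadjusted p under 0.05 (3.47%), and DESeq2 called 1 (0.0101%), COX15. This comparison shares its RELN-0 cells with the one above, so the values are only set side by side. PTGS2 had a log2 fold change of -0.54 ± 0.21 in cells with 1 or 2 RELN UMIs and -0.83 ± 0.19 in RELN-high cells. For NKX6-1 the values were 0.02 ± 0.23 and -0.76 ± 0.23, for MTG2 1.06 ± 1.00 and 2.34 ± 0.58, and for INS -0.13 ± 0.07 and -0.16 ± 0.08, none past the adjusted edgeR threshold (adjusted p = 0.999 in each).

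RELN-high cells overlapped in part with β-cells expressing DLK1, an imprinted gene of a Delta-like membrane protein. At least 3 DLK1 UMIs were found in 12 of 62 RELN-high cells (19.4%) and 154 of 969 RELN-0 cells (15.9%). All 12 came from old females 3 and 4, with 2 of 5 and 10 of 13 RELN-high cells against 12 of 21 and 106 of 167 RELN-0 cells. In old female 1 neither state had such a cell, and in young male 2 the counts were 0 of 8 and 20 of 110.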

How the data were processed

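Single islet cells of 16 monkeys were profiled by modified STRT-seq. Per the labels and the study's methods, the authors demultiplexed reads by cell barcode, aligned them with TopHat2 2.0.12 to the Macaca_fascicularis_5.0 genome, counted them per gene with HTSeq and collapsed them by UMI. The deposited count tables hold whole UMI counts per gene and cell, and the deposited list of cell barcodes was used only to count shared barcodes. Rows of spike-ins (95) were left out of CPM and tests. The comparisons of genes, the lists and the cells' rule were chosen with earlier results of these data known.

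Sums per animal and state, each animal with at least 5 cells of both, were tested with edgeR 4.0.16 (filterByExpr, TMM, quasi-likelihood test, animal as block, Benjamini-Hochberg, 0.05). The states pair because both come from the same animal. CPM of single genes are TMM-scaled. Shares were compared with exact permutation tests over monkeys. Alternatives were DESeq2 1.42.0, limma-voom (limma 3.58.1), other normalization, filters, thresholds, depth matching, thinning to 10000 UMIs and leaving out each animal. Limma-voom was chosen after seeing the data. So were 3 separate others: a threshold of 10 RELN UMIs, a fit without library 1 of old female 1, and RELN levels without old female 1. Doublets were not called by a tool; cells above the 95th percentile of UMIs were left out in 1 alternative. Named genes were the 4 proposed markers, hormones and reelin receptors, and up to 4 genes of lowest p from each list. On simulated counts of the same size the fit was checked for recovery of known changes. The recovery is not given here, so the size of change that these sums could show is not stated. Nothing shows that the 4 libraries of a monkey are separate samples of tissue, so the monkey was the replicate. Coordinates are not given, because the gene table at hand is of another build.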

Additional observations from a re-analysis of the deposited data

Results flagged for a closer look

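In a group of 4 to 10 monkeys, a value was marked when its gap to the nearest other value exceeded Dixon's critical value, which chance does in about 1 in 20 groups. The marks rest on overlapping groups of the same animals and on the counts that chose the cells. Where all other values are at 0, any value above 0 is marked, and the rate of 1 in 20 does not apply. For the share of β-cells that were RELN-high, young male 2 (6.50%) stood apart among the 8 young monkeys and again among the 4 young males, all others being at 0. Old male 4 (17.6%, 3 of 17 cells) stood apart among the 4 old males.

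For RELN summed over all β-cells, old female 1 (142 CPM) stood apart among the 8 old monkeys and among the 4 old females. Old male 4 (50.3 CPM) stood apart among old males, and young male 2 (9.42 CPM) among young monkeys and among young males. The causes were not tested.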

How the results depend on the processing

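The count of genes that differed between RELN-high and RELN-0 β-cells was 0 in 15 of 19 alternatives, among them the fit with no replicate block (0 genes) and all that left out 1 animal (0 to 0 genes). Calls appeared with DESeq2 (2 genes), limma-voom (10), no low-count filter (4) and members of at least 10 RELN UMIs in 2 animals (4). The last 3 of these each called INS, PTGS2 and TTR lower. For 1 or 2 RELN UMIs, DESeq2 gave 1 gene, no low-count filter 3, no replicate block 0 and leaving out 1 animal 2 each. The old-minus-young difference in share was 6.05 to 9.42 points when 1 monkey was left out. It was past 0.05 in 13 of 24 alternatives. The difference lost this with thinned cells (8.37 points), at least 50 CPM (8.42), at least 10 RELN UMIs (5.25) and within males (3.17). The same held without any 1 of the young monkeys at 0 (8.03). The female-minus-male difference was 0.910 to 5.41 points when 1 monkey was left out and turned to -1.63 within young monkeys. Among single genes, the log2 fold change of INS (-0.30 to 0.03 when 1 animal was left out) turned to 0.03 without old female 1, that of IAPP to 0.02 with at least 10 RELN UMIs, and that of PLA2G4A (-2.59 to 0.21) to 0.21 without old female 1 and in the stricter cell filter. DLK1 (-0.38, or -1.74 to 0.81 with 1 animal left out) turned to 0.75 with limma-voom, 0.30 with no replicate block, 0.81 without young male 2, 1.52 with at least 10 cells of each state, 0.45 in thinned cells and 2.29 with at least 10 RELN UMIs. The causes were not tested. Requiring INS at 10 times the second hormone left too few β-cells for any value.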
